A study of Nannochloropsis oceanica strain IMET1 with 6 samples.

Results

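Of 9552 genes listed for Nannochloropsis oceanica strain IMET1, 178 (1.86%) were abundant in the wild type (WT) and at least halved in the insertional mutant HLM23. They were chosen from the deposited normalised read counts by 3 limits. The WT mean had to be at least 1000, the HLM23 mean at most 0.5 of the WT mean, and the highest HLM23 value below the lowest WT value. These limits use the strain comparison itself, so the strain differences of the members describe the choice, are given without a test, and support nothing further. HLM23 is a strain labelled as a knockout of NO06G03670 and the WT is its control, with 3 libraries of messenger RNA from each. Both strains were started at an optical density of 0.1 in 25 ml of artificial sea water with nutrients. They grew at 25 °C and a light intensity of 600 μmol of photons m-2 s-1 for 16 h of each day, with air enriched to 0.2% CO2, and cells were taken on day 3, 1 h before dark. HLM23 is 1 insertion strain, the labels give no position of the insertion within the gene, and no second mutant line or complemented strain is among the samples analysed here. The labels also leave unsaid if the replicates came from separate cultures, so any p-value reflects variation among these libraries that may be technical. In RNA from whole cultures, fewer cells transcribing a gene and less of its RNA per cell cannot be told apart.

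Nannochloropsis oceanica is a unicellular marine alga of the stramenopile lineage, known for storing oil. NO06G03670 is known as the gene of an APETALA2-like transcription factor. Such proteins bind DNA through the AP2 domain, and in land plants they are known from the control of development, stress responses and seed oil. The nuclear gene IDs of the table are not paired with names or functions: none of them matched the 160 organelle genes of the reference table, whose assembly is named ASM5162214v2. The members are therefore described by their level, length and place in the genome, no role is assigned to any of them, and all but 2 are given by position as the authors' table lists it. The sources used here name no genome build for these positions.

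If 1 step of the deposited values stands for 1 read, the libraries held 15331673 to 18711316 gene reads. The disrupted gene itself lay just outside the limit on the ratio. NO06G03670 had normalised read counts of 1073, 982 and 777 in HLM23 and 2164, 1664 and 1682 in the WT, so its HLM23 mean was 51.4% of the WT mean. Reads assigned to this gene were thus still present in the strain labelled as a knockout. Counts per gene do not show which part of the transcript they came from.

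The word abundant covers a broad range here. A WT mean of at least 1000 was reached by 3123 genes, or 32.7% of all. Of these abundant genes, 994 (31.8%) were lower in HLM23 with no overlap between the strains, and the 178 members were the 5.7% that were also at least halved. With the limits turned round, 114 abundant genes (3.65%) were at least doubled in HLM23 with no overlap. All 178 members passed limma's test across all genes (adjusted p under 0.05, lower in HLM23), as 14.3% of the 9452 genes tested did, and all 178 were lower past the same threshold in the authors' deposited table, as were 15.7% of all its genes. Nothing is read from those counts, since the choice of members used the same contrast.

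Per length, the members were not the most abundant transcripts. Their median WT level was 48.0 FPKM, against 58.4 FPKM over all abundant genes and 18.7 FPKM over all genes tested. In HLM23 their median level was 17.1 FPKM, against 50.8 FPKM for the abundant genes and 16.7 FPKM for all genes tested. The members thus stood near the level of a typical abundant gene in the WT and near that of a typical tested gene in HLM23. Their WT means of normalised reads ran from 1005 to 62895 with a median of 2033, and their HLM23 means from 248 to 22831 with a median of 848. By WT mean of normalised reads, 7 members were among the 200 highest genes and 61 among the 1000 highest.

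**Figure D1:**
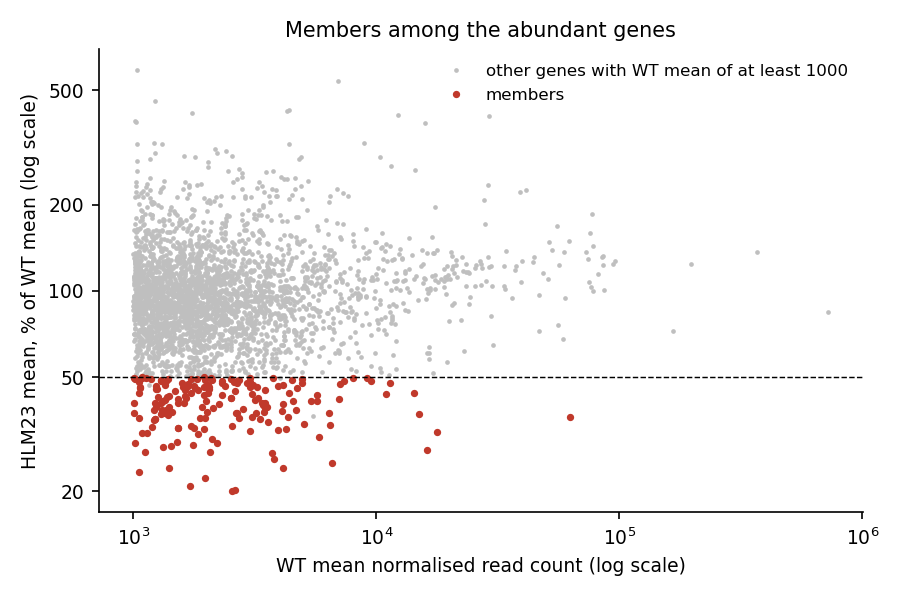
Each point is 1 of the 3123 genes with a WT mean of at least 1000; the horizontal axis is the WT mean of normalised reads (log scale), the vertical axis the HLM23 mean as a percentage of the WT mean (log scale). The 178 members (red) lie between 20.0% and 49.9%, under the dashed line at 50%, and most have a WT mean under 5000.

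Most members lay in the upper part of the range that the limit allows. The HLM23 mean ran from 20.0% to 49.9% of the WT mean, with a median of 41.4% and quartiles of 36.1% and 46.6%, while the median over all abundant genes was 92.9%. On the fitted log2 scale, on which the values were log2(normalised read count + 1), the median difference of the members was -1.29, beside -0.11 for abundant genes and -0.0022 for all genes tested. In 7 members the HLM23 mean was at most 25% of the WT mean, and in 63 it lay above 45%. The ratio showed no steady trend with the WT level: its median was 40.6% in the 53 members with a WT mean under 1500, 41.9% in the 70 with a mean from 2000 to 5000, and 37.2% in the 7 with a mean of at least 10000. The share of abundant genes that were members was 5.04%, 6.77% and 3.50% in those ranges.

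Genes close to the limits show how gradual they are. The member nearest to the limit on the ratio, on chromosome 29 (117071 to 119779), stood at 49.87% of the WT mean, and the nearest gene left out by it, on chromosome 24 (121754 to 124765), at 50.1%. The member with the lowest WT mean, on chromosome 10 (660013 to 662161), had 1005 normalised reads in the WT, and the next gene below the limit, on chromosome 12 (170787 to 175826), had 997. The member closest to an overlap, on chromosome 20 (563996 to 566741), had its highest HLM23 value at 92.7% of its lowest WT value. Only 4 genes met both limits on the means and overlapped between the strains. In each of them WT replicate 2 was the lowest WT library and lay under the highest HLM23 library: in the gene on chromosome 22 (399685 to 400530) the counts were 1454, 1537 and 3033 in HLM23, against 7591, 2761 and 6043 in the WT.

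The lowest ratio belonged to NO25G00520, a gene of chromosome 25 (149393 to 154188, minus strand). Normalised read counts of it were 377, 491 and 663 in HLM23 replicates 1, 2 and 3, and 3401, 1558 and 2703 in the WT replicates. Every HLM23 library lay well under every WT library, and WT replicate 2 was the lowest of the WT. The mean count was 510 ± 144 for HLM23 and 2554 ± 931 for the WT (SD, n = 3 each), so HLM23 stood at 20.0% of the WT, a fitted log2 difference of -2.29 ± 0.28 (SE). Per length, the level was 6.44 ± 1.41 FPKM for HLM23 and 35.1 ± 13.1 FPKM for the WT (SD, n = 3 each).

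The members next to it in the order of ratios were of a similar kind. The gene on chromosome 8 (489787 to 496699, minus strand) had 327, 626 and 631 normalised reads in HLM23 and 3353, 1659 and 2840 in the WT, or 20.2% of the WT mean. Next came a gene of chromosome 17 (873289 to 882602, plus strand), with 279, 434 and 363 in HLM23 and 1872, 1076 and 2191 in the WT, or 20.9%. On chromosome 7, the member at 898277 to 901037 (minus strand) had 232, 491 and 585 in HLM23 and 2051, 1231 and 2609 in the WT, or 22.2%. In these 4 genes HLM23 replicate 1 was the lowest library of all 6 and WT replicate 2 the lowest of the WT. The WT spread was wide in each, with SDs of 931, 868, 574 and 693 normalised reads.

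The gene on chromosome 25 (508155 to 511392) had the lowest HLM23 mean of normalised reads among the members. Its counts were 155, 293 and 295 in HLM23, against 1571, 534 and 1073 in the WT. A member of chromosome 11 (270477 to 277825) had 213, 485 and 314 in HLM23 and 1677, 1021 and 1514 in the WT. Per length, this second gene was the lowest member in HLM23, at 2.78 FPKM against 6.63 FPKM for the gene on chromosome 25. Both have HLM23 replicate 1 at the bottom and WT replicate 2 closest to the HLM23 libraries. The rest of the 15 lowest ratios ran from 24.1% to 28.7% of the WT mean. They lay on chromosome 16 (715515 to 719163), chromosome 4 (1267552 to 1270278), chromosome 1 (282034 to 286343 and 722152 to 725517), chromosome 15 (859822 to 865163), chromosome 18 (787871 to 792127), chromosome 10 (82403 to 86364), chromosome 23 (571815 to 574410) and chromosome 6 (765750 to 770045).

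**Figure D2:**
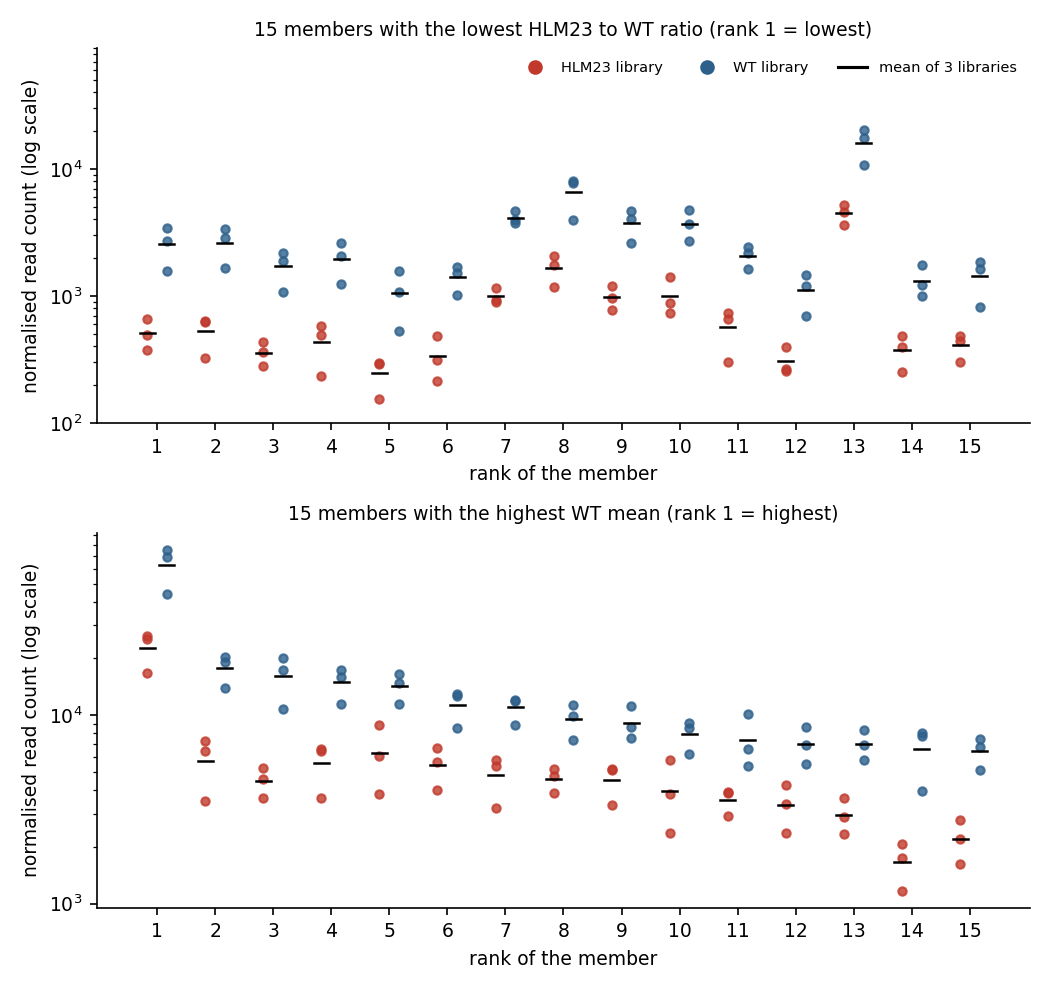
Normalised read counts (log scale) in each HLM23 library (red, left) and WT library (blue, right), with a bar at the mean of 3 libraries, for the 15 members with the lowest ratio (upper panel) and the 15 with the highest WT mean (lower panel). In every member shown the 3 red points lie under the 3 blue points, which the choice of members required, and the lowest blue point is set apart in many of them.

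At the upper end of abundance stood NO12G02410 on the plus strand of chromosome 12 (693487 to 696392), the most abundant member in both strains. Its normalised read counts were 16784, 26382 and 25328 in HLM23 and 69031, 44000 and 75655 in the WT. HLM23 replicate 1 and WT replicate 2 were the low libraries of their strains, and the strains were separated by a wide margin. The mean count was 22831 ± 5263 for HLM23 and 62895 ± 16696 for the WT (SD, n = 3 each), or 36.3% of the WT. It ranked 20th of all genes by WT mean, and this gene alone made up 9.53% to 11.9% of the members' reads in each library. Per length it ranked 55th in the WT, where it also led the members.

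6 further members had a WT mean of at least 10000. The gene on chromosome 9 (290844 to 294868) had 3496, 6441 and 7291 normalised reads in HLM23 and 19172, 13957 and 20356 in the WT, or 32.2% of the WT mean. On chromosome 10, the member at 82403 to 86364 had 3648, 5231 and 4603 in HLM23 and 17378, 10738 and 20216 in the WT, or 27.9%, and it was among the 15 lowest ratios as well. A member of chromosome 6 (718761 to 720268) had 3642, 6582 and 6479 in HLM23 and 17465, 11489 and 15987 in the WT, or 37.2%. These 3 genes repeat the pattern of NO12G02410, with a lone low library in each strain. The genes on chromosome 1 (1159592 to 1162752), chromosome 29 (299442 to 302038) and chromosome 5 (624582 to 629551) stood at 44.0%, 43.5% and 47.8% of their WT means of 14230, 10992 and 11359. The rest of the 15 highest WT means ran from 6447 to 9521 normalised reads. They belonged to genes on chromosome 20 (548594 to 550841), chromosome 10 (445517 to 449664 and 190395 to 200867), chromosome 4 (1164290 to 1167385 and 1267552 to 1270278), chromosome 18 (849170 to 857211), chromosome 5 (794706 to 798816) and chromosome 14 (809365 to 825439). Their HLM23 means were 25.2% to 49.9% of the WT means, and the lowest of these was that of the gene at 1267552 to 1270278 on chromosome 4.

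Together the members took 1.06%, 1.68% and 1.38% of the normalised reads in HLM23 replicates 1, 2 and 3, and 4.38%, 2.90% and 3.87% in WT replicates 1, 2 and 3. The share averaged 1.37% ± 0.31 over HLM23 and 3.72% ± 0.75 over the WT libraries (SD, n = 3 each). The strains do not overlap in this share, as the choice of members fixed, and the gap between HLM23 replicate 2 and WT replicate 2 is the smallest between any libraries of the 2 strains.

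Within each strain, the members kept a common order of libraries that the limits did not ask for. HLM23 replicate 1 was the lowest HLM23 library in 150 of 178 members (84.3%), against 37.3% of all abundant genes. WT replicate 2 was the lowest WT library in 171 members (96.1%), against 40.7% of all abundant genes, and it was the highest WT library in 0 members. The values of members run through the libraries as a gradient, from HLM23 replicate 1 through the other HLM23 libraries and WT replicate 2 to WT replicates 1 and 3. The step from HLM23 to WT libraries in it was fixed by the limits, which left only the order within each strain free. Of the orders of the 6 libraries, 11 occurred among members, and the 4 most frequent held 147 of the 178. The commonest, HLM23 replicates 1, 3 and 2 followed by WT replicates 2, 3 and 1, was seen in 55 members (30.9%) and in 4.35% of abundant genes. Absence of overlap was a condition for members and not for abundant genes, which by itself makes such orders more frequent among members. The 4 most frequent orders held 55, 45, 24 and 23 of the 178 members. They held 136, 107, 143 and 103 of the 994 abundant genes that were lower in HLM23 with no overlap.

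Comparisons inside a strain show the size of this order. The median member had 0.649 times as many normalised reads in HLM23 replicate 1 as in HLM23 replicate 2, where the median abundant gene had 0.978 times as many. In the WT, replicate 2 held 0.671 times the reads of replicate 1 in the median member, against 0.971 times in the median abundant gene. HLM23 replicate 1 was below HLM23 replicate 2 in 176 of the 178 members, against 55.8% of abundant genes. WT replicate 2 was below WT replicate 1 in 176 members as well, against 56.0% of abundant genes. The median coefficient of variation of the members was 25.3% in HLM23 and 21.7% in the WT. It was 19.5% in HLM23 and 20.9% in the WT for the abundant genes at least doubled, and 15.1% in HLM23 and 11.4% in the WT over all abundant genes, members included. What sets the replicate 2 libraries closer together was not tested.

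**Figure D3:**
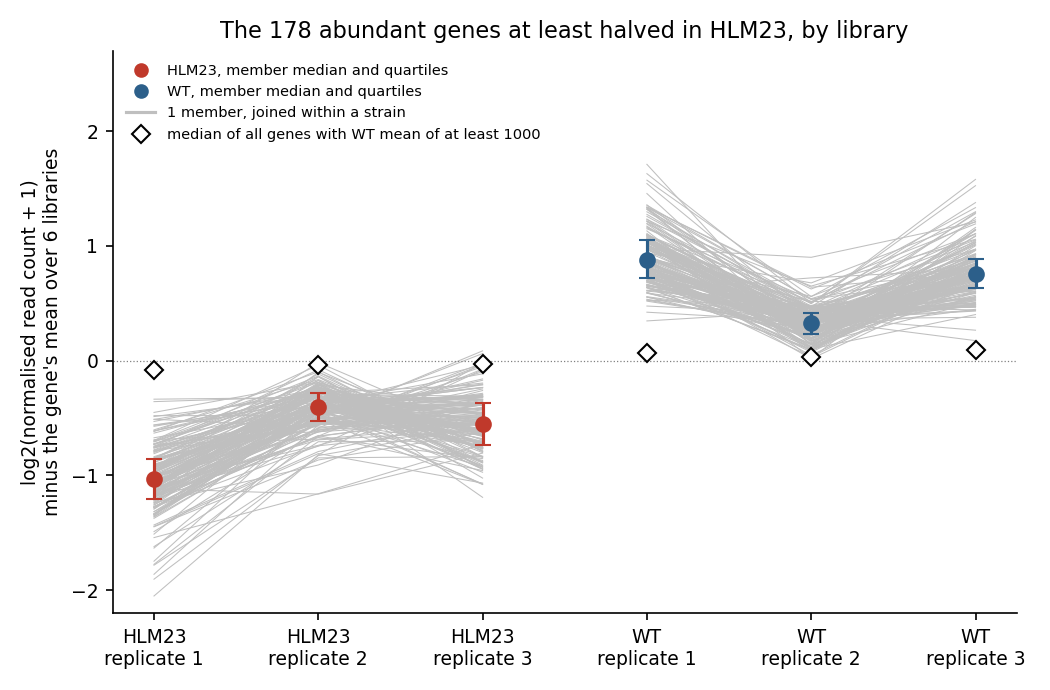
The vertical axis is log2(normalised read count + 1) minus the gene's own mean over the 6 libraries, the horizontal axis the library. Grey lines are the 178 members, joined within a strain; filled circles with bars are their median and quartiles; open diamonds are the median of all 3123 abundant genes. The member medians are -1.03, -0.40 and -0.55 in HLM23 replicates 1, 2 and 3 and 0.88, 0.33 and 0.75 in WT replicates 1, 2 and 3, while the diamonds stay between -0.079 and 0.095.

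Given this order within each strain, the halving belongs to the means and not to every set of libraries. Between the libraries numbered 1, HLM23 stood at a median of 26.6% of the WT over the members, and 177 members were at or under 50%, beside 12.9% of all abundant genes. Between those numbered 3 the median was 40.6%, and 144 members were at or under 50%, beside 9.35% of abundant genes. Between those numbered 2 the median was 61.1%, and 18 members were at or under 50%, beside 0.64% of abundant genes, or 20 in all. The abundant genes at least doubled had mirrored medians of 301%, 264% and 170% of the WT for numbers 1, 3 and 2. WT replicate 2 was the highest WT library in 99 of the 114. The mirror was less even in HLM23, where replicate 1 was the highest library in 63 of them and replicate 3 in 51. The replicate numbers name libraries here and are not known to pair them.

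In 12 of the 178 members (6.74%) every HLM23 library was at most 50% of every WT library. The same 12 are the only abundant genes of this kind (0.384% of 3123), since the limits take in every such gene. Of the 9452 genes tested, 69 (0.730%) were of this kind. Among the 12 members, the widest gap belonged to a gene of chromosome 16 (715515 to 719163, minus strand). It had 929, 899 and 1152 normalised reads in HLM23 and 3962, 3759 and 4649 in the WT, and its highest HLM23 value was 30.6% of its lowest WT value. Here WT replicate 2 was close to the other WT libraries and HLM23 replicate 1 was not the lowest of HLM23, unlike in most members. The mean count was 993 ± 138 for HLM23 and 4123 ± 467 for the WT (SD, n = 3 each), or 24.1%. Similarly steady was a gene of chromosome 10 (241934 to 244874, minus strand), at 902, 1136 and 978 in HLM23 against 2502, 2699 and 2842 in the WT. With means of 1005 ± 119 for HLM23 and 2681 ± 171 for the WT (SD, n = 3 each), it is one of the 7 members in which WT replicate 2 was not the lowest WT library. These steady genes were singled out after their values had been seen. The other 10 genes of the 12 lie on chromosomes 1, 7, 8, 10, 11, 13, 17, 23 and 25, with 2 of them on chromosome 1, and NO25G00520 is among them at 42.5%.

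In the other members in which WT replicate 2 was not the lowest, the WT libraries differ in another way. The gene on chromosome 12 (747561 to 751655) had 1077, 1877 and 1792 normalised reads in HLM23 and 6067, 3527 and 3447 in the WT, where replicate 1 alone was high. The same holds for the genes on chromosome 3 (94403 to 98732 and 962242 to 966684) and for another on chromosome 12 (561714 to 566693). A further one on chromosome 7 (1254486 to 1257109) had WT counts of 4389, 4661 and 5824, and the gene on chromosome 14 (794863 to 796995) had 1150, 1049 and 1049.

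Whether genes chosen in this way are also lower in libraries that had no part in the choice can be read from the data. The 3 limits were applied to 4 libraries, and the chosen genes were then looked up in the HLM23 and the WT library left out. Without the libraries numbered 1, 87 genes were chosen, and all 87 were lower in the left-out HLM23 library, beside 57.4% of the 3098 genes that were abundant in the WT libraries used. Without those numbered 2, 338 genes were chosen, and 335 were lower, beside 60.8% of 3143. Without those numbered 3, 187 genes were chosen, and 186 were lower, beside 56.8% of 3115. In nearly all of the chosen genes, the direction was the same in the libraries left out. Members made up 84 of the 87, 178 of the 338 and 149 of the 187 chosen genes. The abundant genes beside them were not chosen for a fall in HLM23. The shares are counts over genes of the same libraries, and genes are not independent replicates.

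The size carried over less evenly. In the left-out libraries numbered 1, the median HLM23 value of the chosen genes was 23.3% of the WT, lower than the 45.9% of the libraries used for the choice. For number 3 it was 44.5%, close to the 41.4% of the choice. For number 2 it was 65.6%, against 40.6% in the choice, and 21 of the 338 genes (6.21%) were at or under 50% there, beside 0.732% of the abundant genes. At or under 50% were 95.4% of the chosen genes for number 1, beside 12.1% of the abundant genes, and 62.6% for number 3, beside 9.02%. Over all 9 ways of leaving out 1 library of each strain, 91.3% to 100% of the chosen genes were lower in the left-out HLM23 library. The lowest share came from leaving out HLM23 replicate 3 with WT replicate 2, where 262 of 287 genes were lower. Of the 178 members, 70 were chosen in all 9 ways and 119 in at least 7, and those chosen least often in 3. Members had been chosen on all the libraries, so these counts are partly fixed by that choice.

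**Figure D4:**
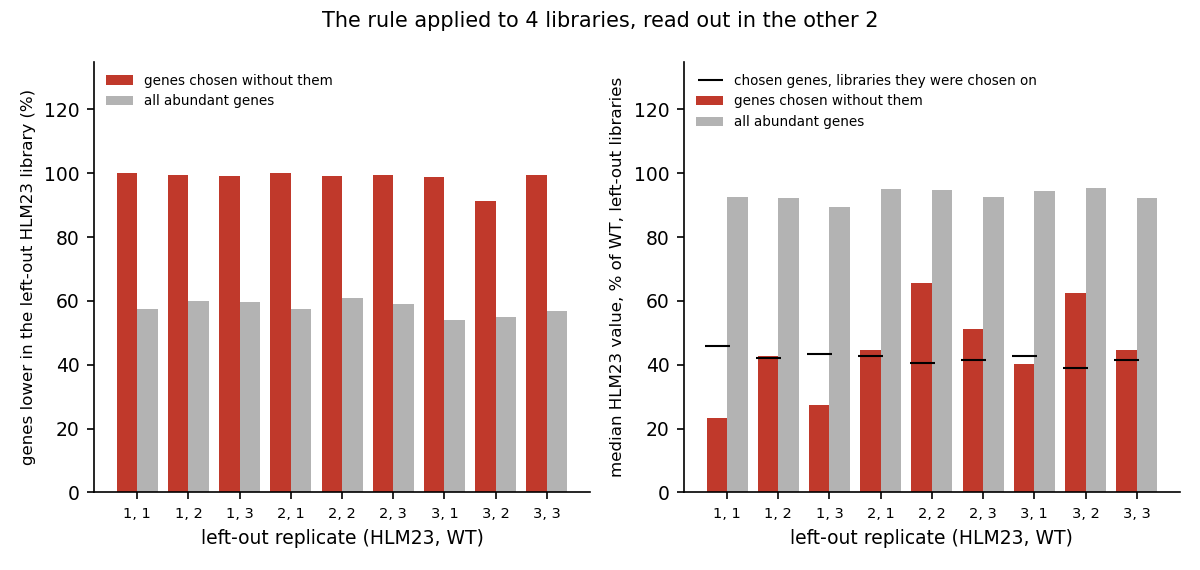
Each pair of bars is 1 of the 9 ways of leaving out an HLM23 and a WT library (horizontal axis), with the genes chosen from the other 4 libraries in red and all abundant genes in grey. The left panel gives the share of genes lower in the left-out HLM23 library, 91.3% to 100% for chosen genes; the right panel gives the median HLM23 value as a percentage of the WT in the left-out libraries, with a black dash for the libraries used for the choice.

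The members were long genes. Their listed length had a median of 3024 bases and quartiles of 1866 and 4384, against a median of 2251 for abundant genes, 1916 for all genes tested and 2095 for the abundant genes at least doubled. Among the abundant genes, split into 5 equal groups by length, the longest, from 3884 to 48853 bases, held 65 members of 625 genes (10.4%), whereas the shortest, from 201 to 1236 bases, held 15 of 625 (2.40%). Genes at least doubled numbered 18 and 20 in the same ranges. Over all abundant genes, the median HLM23 mean was 83.9% of the WT in the longest group and 102% in the shortest. The ratio of the members themselves, which the limit cuts at 50%, had medians of 41.3% in the longest and 45.1% in the shortest group. Members with an HLM23 mean of at most 25% of the WT mean had a median length of 3883 bases. Those above 45% had a median length of 2664 bases. When the trend with gene length was removed from each library before the limits were applied, 164 genes met them, of which 151 were members. The members' median fitted log2 difference was then -1.24.

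**Figure D5:**
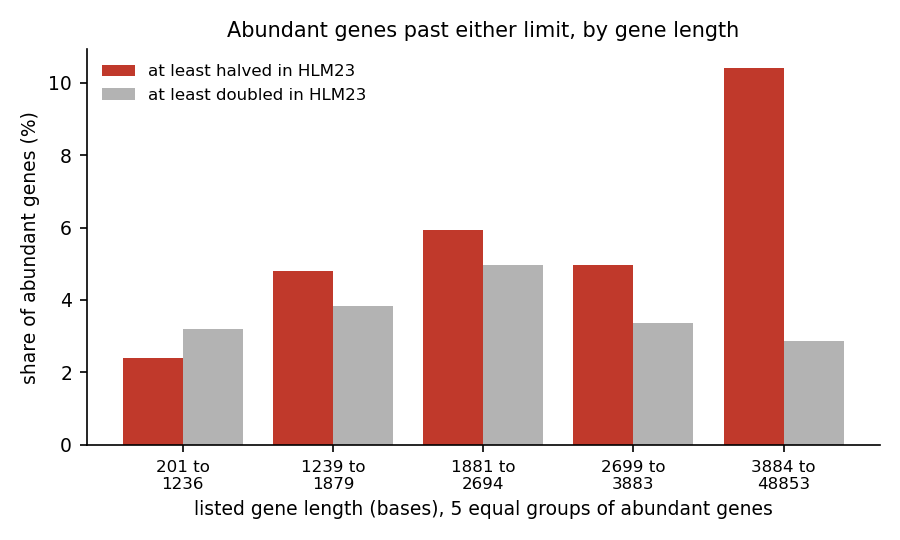
Share of the abundant genes (vertical axis, %) that were at least halved (red) or at least doubled (grey) in HLM23 with no overlap between the strains, in 5 equal groups by listed gene length (horizontal axis, bases). The red share is 2.40% in the shortest and 10.4% in the longest group.

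The extremes of length show no special depth. The longest member, on chromosome 14 (809365 to 825439), is 15942 bases long and had 2352, 3633 and 2877 normalised reads in HLM23 and 8296, 5817 and 6980 in the WT, or 42.0% of the WT mean. The shortest, on chromosome 9 (660221 to 661382), is 606 bases long and stood at 48.7%. The span of a gene beyond its listed length, which would hold introns if the listed length counts exons, had a median of 374 bases in members and 409 bases in abundant genes. It was 0 in 40 members (22.5%), against 16.5% of abundant genes and 28.3% of all genes tested.

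The members were spread over all 30 chromosomes. Chromosome 1 had the most, at 12, and chromosomes 19 and 30 the fewest, at 2 each. Relative to the abundant genes of a chromosome, the share ran from 2.86% on chromosomes 5 and 19 to 10.9% on chromosomes 23 and 25, where it rests on 6 and 7 members. On the plus strand lay 90 members (50.6%), as did 49.7% of abundant genes. Of the 9 members on chromosome 6, none was near the disrupted gene: the closest, at 818706 to 820137, lies 184380 bases away and had 46.2% of its WT mean.

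Direct neighbours in the gene order were 4 pairs of members, on chromosomes 1, 3, 6 and 7. How many such pairs genes taken at random would give was not computed. The closest pair, on chromosome 7 (594016 to 596691 and 596847 to 601772), is divergent with 155 bases between its genes. Its genes averaged 525 ± 170 and 831 ± 200 normalised reads in HLM23, against 1395 ± 350 and 2127 ± 404 in the WT (SD, n = 3 each), or 37.7% and 39.1%. The pairs on chromosome 1 (631904 to 632926 and 633364 to 639722) and chromosome 6 (527921 to 531643 and 532395 to 538082) are divergent as well, with 437 and 751 bases between, and stood at 46.0% and 38.8%, and at 39.3% and 38.4%. The pair on chromosome 3 (466827 to 469016 and 469796 to 475599) is in tandem, 779 bases apart, at 33.7% and 42.9%. In 3 of the 4 pairs the genes are thus transcribed away from each other, and the genes of a pair differ in listed length by more than 1000 bases in each. The share of divergent pairs among all neighbouring genes was not computed.

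Genes beside the members were looked at next. The 343 tested genes that are direct neighbours of a member and no members themselves had a median HLM23 mean of 92.5% of the WT, against 102% over the 8931 tested genes that are neither members nor their neighbours. Of the neighbours, 25 (7.29%) were at or under 50%, against 3.93% of those genes. Reads from overlapping genes cannot be told apart where strand is not used in counting, and the sources used here do not state how strand was handled. A gene on the other strand overlaps 24 members (13.5%), and 469 of the 3123 abundant genes overlap another gene. No member overlaps a gene on its own strand.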

How the data were processed

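The deposited table holds 1 row per gene. Per the submitters' processing notes, fastp, HISAT2, featureCounts and DESeq2 were used; no version, setting or build is stated. The sample columns, a signal scaled by the authors to make libraries comparable, are whole multiples of a fixed step in each library (tolerance 0.001 of a step), as scaled reads are. They are called normalised read counts here. The FPKM values deposited by the authors served for levels per length; their length equalled the listed one within 0.01 of it in 159 of 178 members. From the authors' deposited comparison, the log2 fold changes and the p-values after adjustment served for counts of calls only. No count model was run, since an automatic test accepted the columns of HLM23 replicate 3 and WT replicate 3 as neither counts nor recovered reads.

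Samples were grouped by title. Strains were compared across the 9452 genes of mean at least 1 on log2(value + 1), using limma 3.58.1 (R 4.3.3). The fit had a trended variance prior, and p-values were adjusted by Benjamini-Hochberg. It was tested on simulated data in which genes varied independently with a common dispersion. That simulation held no order of libraries shared by genes, so it does not cover this trait of the data. The other values were computed with pandas 2.3.3. The members, lists and alternatives were chosen with earlier results of these data known. Gene IDs printed are the member with the lowest ratio, the one with the highest WT mean and the disrupted gene. Given by position are the leading 15 by ratio and by WT mean, neighbouring members, genes at the limits and the member nearest the disrupted gene. The steady members, those in which WT replicate 2 was not lowest, and the shortest and longest member were chosen after their values were seen.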

Additional observations from a re-analysis of the deposited data

How the results depend on the processing

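The limits set the number of members. It was 178 as reported, 285 with a WT mean of at least 500, 91 with at least 2000, 75 with an HLM23 mean of at most 0.4 of the WT mean, and 351 with at most 0.6. Allowing overlap gave 182 and medians in place of means 198. Equal library totals moved the median of all genes to -0.11 on the log2 scale and gave 258 genes, all 178 members among them, with a member median of -1.40. Leaving out 1 library gave 130 to 275 genes, the highest without WT replicate 2. Leaving out both replicate 2 libraries, chosen after the data were seen, gave 338, all 178 members among them. The member median log2 difference ranged from -1.43 to -1.11 without 1 library. The members' share of reads, chosen anew without each library, ran from 0.985% to 2.26% in HLM23 and from 2.60% to 5.80% in the WT. Genes chosen without 2 libraries were lower in them in 99.3% of cases over the same-numbered choices, and in 100%, 98.8% and 91.3% without HLM23 2 and WT 1, HLM23 3 and WT 1, and HLM23 3 and WT 2. limma called 1356 genes lower in HLM23 and 1297 with the replicate block, 1225 of them shared. Same-numbered libraries were not shown to be paired, with correlations of deviations from the strain means of -0.069, -0.11 and 0.15. The highest correlations were between libraries of different number. They were 0.19 for HLM23 replicate 1 with WT replicate 2 and 0.18 for HLM23 replicate 2 with WT replicate 1. The other differently numbered libraries gave -0.12 to -0.064, and what links libraries across the strains was not tested. Without 1 library limma called 671 to 1373 genes lower, with 833 without HLM23 replicate 1, 671 without WT replicate 1 and 672 without WT replicate 3. It called 1226 without HLM23 replicate 2, 1373 without HLM23 replicate 3 and 1248 without WT replicate 2. Each of these fits had 1 sample fewer. The remaining alternatives gave 1324 to 1603. The cause of these shifts was not tested. The lowest value of a member in any library was 155 normalised reads.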
